A study of Mus musculus with 12 samples.

Results

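The 10 genes examined here add, keep, oxidise or remove methyl groups on DNA, or steer the enzymes that do so. They were picked by symbol from the 23336 genes of the count table: the DNA methyltransferases Dnmt1, Dnmt3a and Dnmt3b, their cofactors Uhrf1 and Dnmt3l, the dioxygenases Tet1, Tet2 and Tet3, the glycosylase Tdg and the maternal factor Dppa3. Of these, 9 had enough counts to be among the 12814 genes tested, and Tdg had 0 counts in all 12 libraries. The cells were mouse embryonic stem cells (ESCs) of 3 lines, a female line labelled RlimKO, a female WT line (Pgk12.1) and a male WT line (E14), all labelled with the strain C57BL/6. Differentiated cells had been through embryoid bodies for 3 days without LIF, the cytokine that holds mouse ESCs undifferentiated, and then 6 days of culture in 7.5% O2, whereas undifferentiated cells stayed in medium with LIF. Each of the 6 groups (differentiated RlimKO-labelled female, differentiated WT female, differentiated WT male and the same lines undifferentiated) had 2 libraries. Each genotype and sex was a single line, so sex, genotype and line cannot be told apart. The labels do not say that replicates were separate cultures, and p-values therefore measure only the spread between these libraries, which may be technical. That spread was estimated over all 6 groups, so a p between 2 groups also depends on the replicates of the other groups.

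In mammals, DNMT3A and DNMT3B set new methyl marks on CpG sites, and DNMT3L, which has no catalytic activity of its own, binds and stimulates them. At replication UHRF1 recognises the hemimethylated CpG and brings in DNMT1, which copies the mark to the new strand. TET enzymes oxidise methylcytosine, and TDG cuts out the most oxidised forms for base excision repair. DPPA3 (also called Stella) binds UHRF1 and holds it away from chromatin in the oocyte and early embryo. Mouse ESCs with both X chromosomes active are known to carry less DNA methylation than male ESCs, and X-linked regulators of ERK signalling such as Dusp9 and Klhl13 are among the genes studied for that difference.

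The libraries held 2011919 to 5401940 counts in genes, of which the ribosomal precursor Rn45s took 6.36% (differentiated male replicate 2) to 67.7% (differentiated RlimKO-labelled replicate 1). Values are CPM, counts per 1e6 of TMM-scaled library size, and 3 counts, the limit that a count of 0 allows, correspond to 0.322 to 1.75 CPM by library. Both states of the RlimKO-labelled line held counts of Rlim, the X-linked ubiquitin ligase gene named in the label, at 290.1 and 299 CPM in differentiated RlimKO-labelled cells and 160.0 and 150.0 CPM in undifferentiated ones, against 258 to 282 CPM in WT female libraries; counts over the whole gene cannot show which exons were transcribed. As a check of the labelled state, the summed CPM of 7 ESC markers (among them Pou5f1, Nanog and Zfp42) was 54.2 to 176 in differentiated libraries and 1551 to 1801 in undifferentiated ones, with all 7 detected in every library. Of 6 markers of fibroblasts and feeder cells (fibroblast markers below) the sum was 2990 to 11441 CPM in differentiated libraries and 1.17 to 58.7 CPM in undifferentiated ones. Of these, 5 were called higher after differentiation in each line, 1 was not called in each female line, and 1 was called lower in males. The sum of 8 endoderm markers was 123 to 310 CPM in differentiated libraries against 1.05 to 6.39 CPM in undifferentiated ones. Of 4 neuroectoderm markers, 1 was called higher and 3 lower after differentiation in each line, with Sox1 at 0 in all differentiated libraries; their sum was 41.4 to 132 CPM in differentiated libraries and 53.9 to 73.0 CPM in undifferentiated ones. Differentiated male replicate 2 stood apart from replicate 1, with 2990 against 9244 CPM of fibroblast markers and 163 against 54.2 CPM of ESC markers, and its column name falls outside the numbered series of the other 11. In bulk RNA, fewer cells of a type and less RNA per cell cannot be told apart.

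**Figure D1:**
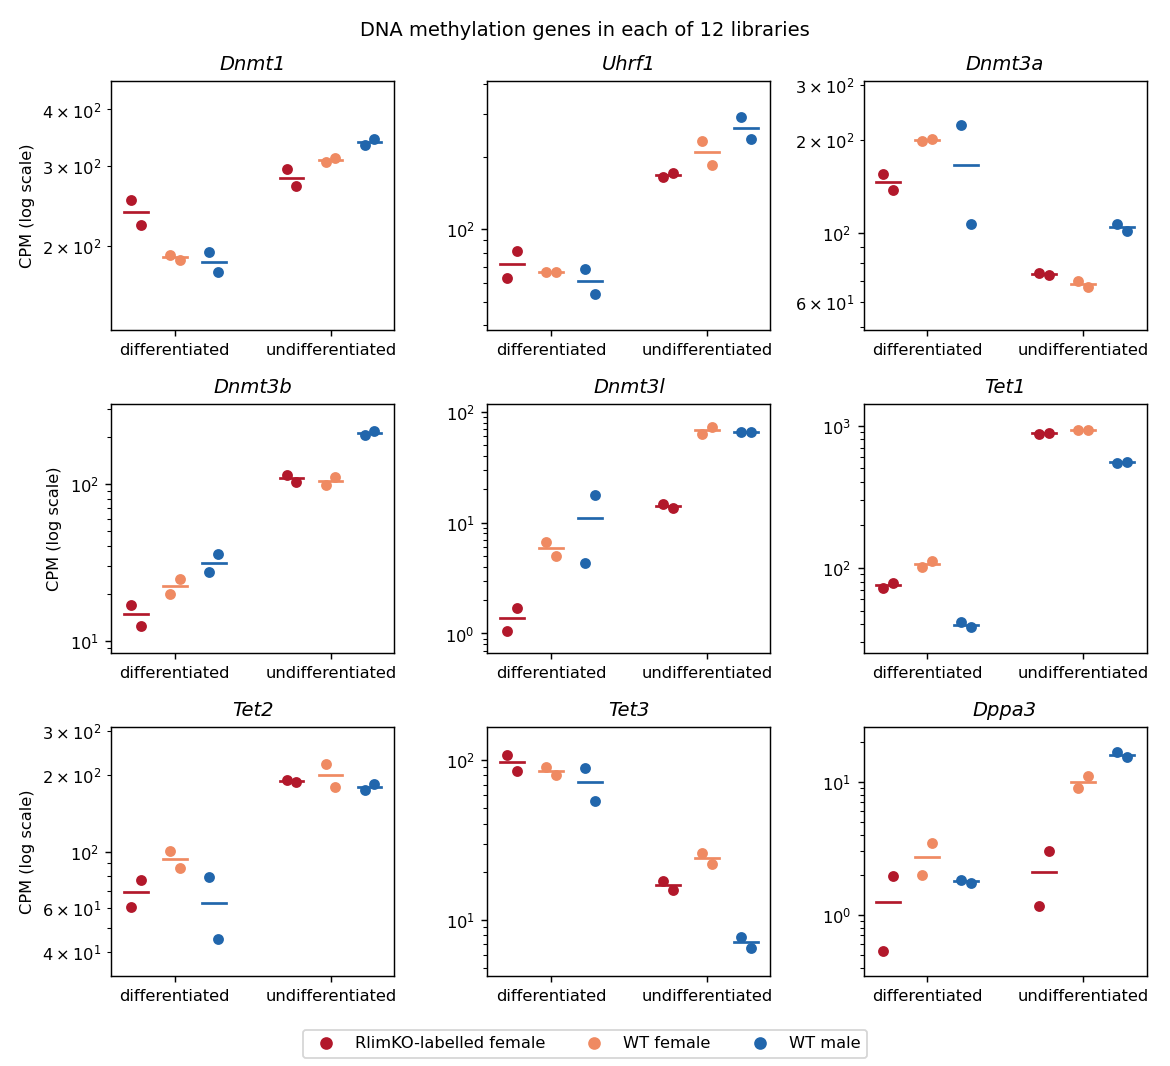
CPM on a log axis for 9 genes (1 panel each) in differentiated and undifferentiated cells; points are libraries, bars the mean of 2, and colours the 3 lines. Tet1, Dnmt3b and Dnmt3l are lower and Tet3 higher in every differentiated library than in any undifferentiated library of the same line, and Dnmt3l of the undifferentiated RlimKO-labelled line (14.6 and 13.6 CPM) lies below both other undifferentiated lines.

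On differentiation most of these genes fell and 2 rose, in each line. By edgeR's quasi-likelihood test with p adjusted over all tested genes (Benjamini-Hochberg, threshold 0.05), 7 of the 9 tested members were called in the RlimKO-labelled line (2 higher, 5 lower), where 48.0% of all tested genes were called (26.4% higher and 21.6% lower). In WT females 9 of 9 were called (2 higher, 7 lower) against 48.7% of all genes (26.5% higher and 22.2% lower), and in males 9 of 9 (2 higher, 7 lower) against 54.0% (28.7% and 25.4%). The libraries of both states did not overlap for 8, 9 and 8 of the 9 members in the RlimKO-labelled, WT female and male lines, against 77.2%, 78.6% and 75.1% of all tested genes. The 2 that rose were Dnmt3a and Tet3 in each line. The median log2 fold change of the 9 genes was -1.21, -1.65 and -2.11 in the RlimKO-labelled, WT female and male lines, where that of all tested genes was 0.10, 0.09 and 0.05. These 3 comparisons share no library, although all 12 share 1 estimate of spread.

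Both maintenance methylation genes fell in WT females and males, and in the RlimKO-labelled line Uhrf1 was called and Dnmt1 was not. Dnmt1, which copies methylation to the daughter strand (GRCm38, chromosome 9: 20907209 to 20959888), had 253 and 222 CPM in differentiated RlimKO-labelled libraries against 295 and 271 CPM in undifferentiated ones. In WT females it had 192 and 186 CPM after differentiation against 307 and 312 CPM, and in males 194 and 175 CPM against 334 and 344 CPM. No differentiated library reached an undifferentiated one of its line. The fall was 0.71 ± 0.14 on the log2 scale in WT females (SE; adjusted p = 0.00058, edgeR) and 0.88 ± 0.13 in males (adjusted p = 7.29e-05). In the RlimKO-labelled line the log2 fold change was -0.25 ± 0.14 and was not called (adjusted p = 0.138), although 8 of 20 alternative analyses called it, among them the one without Rn45s and Lars2. Whether Dnmt1 fell less there than in the other lines was tested as a difference of changes: 0.46 ± 0.19 against WT females (adjusted p = 0.427) and 0.62 ± 0.19 against males (adjusted p = 0.103), neither of which passed.

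Uhrf1, which targets DNMT1 to replicated DNA (chromosome 17: 56303321 to 56323486), had 62.7 and 81.0 CPM in differentiated RlimKO-labelled libraries against 165 and 171 CPM in undifferentiated ones. WT females had 66.3 and 66.2 CPM after differentiation against 232 and 184 CPM, and males 68.6 and 53.9 CPM against 290.4 and 236 CPM. Differentiated libraries of all 3 lines thus lay close together, and the undifferentiated ones were spread more widely. The log2 fold changes were -1.21 ± 0.19 (adjusted p = 9.76e-05), -1.65 ± 0.18 (adjusted p = 4.68e-06) and -2.11 ± 0.18 (adjusted p = 2.98e-07) in the RlimKO-labelled, WT female and male lines. These 3 calls held in all 20 alternatives. A near copy, Gm5648, matches Uhrf1 at 98.3% over 1590 bases and has no row in the count table, so reads of both may be counted under Uhrf1 or left out.

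The de novo methyltransferases moved in opposite directions: Dnmt3a rose while Dnmt3b and its cofactor Dnmt3l fell. Because these genes and the Tet pair below moved oppositely in the same libraries, 5 promoter windows are shown, from 250 bases before to 50 after a RefSeq start on GRCm38.p6, with every CpG, the site these enzymes act on, in capitals. They are Dnmt3a (chr12:3806730-3807029, plus strand, the first of its 3 windows), Dnmt3b (chr2:153649199-153649498, plus strand), Dnmt3l (chr10:78042037-78042336, plus strand, the first of 3), Tet1 (chr10:62887275-62887574, minus strand) and Tet3 (chr6:83441629-83441928, minus strand). Counts summed over a gene do not show which start was used.
Dnmt3a: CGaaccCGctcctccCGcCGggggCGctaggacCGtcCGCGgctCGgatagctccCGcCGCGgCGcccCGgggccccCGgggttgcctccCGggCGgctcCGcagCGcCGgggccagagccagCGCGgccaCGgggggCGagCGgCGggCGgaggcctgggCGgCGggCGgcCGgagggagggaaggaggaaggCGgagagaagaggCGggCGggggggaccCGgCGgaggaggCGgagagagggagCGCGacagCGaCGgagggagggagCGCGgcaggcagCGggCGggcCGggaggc
Dnmt3b: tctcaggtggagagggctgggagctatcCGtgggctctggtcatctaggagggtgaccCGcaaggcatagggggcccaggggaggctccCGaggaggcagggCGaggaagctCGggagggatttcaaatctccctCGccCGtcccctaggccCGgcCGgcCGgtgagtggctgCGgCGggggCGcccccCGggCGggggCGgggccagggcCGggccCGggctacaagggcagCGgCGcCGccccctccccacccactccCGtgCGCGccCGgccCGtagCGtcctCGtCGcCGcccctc
Dnmt3l: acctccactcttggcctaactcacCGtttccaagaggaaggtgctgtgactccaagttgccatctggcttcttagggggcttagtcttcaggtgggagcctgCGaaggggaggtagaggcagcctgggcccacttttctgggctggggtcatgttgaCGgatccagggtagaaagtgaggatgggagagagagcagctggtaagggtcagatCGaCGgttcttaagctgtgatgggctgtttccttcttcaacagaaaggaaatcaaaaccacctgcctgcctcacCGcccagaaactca
Tet1: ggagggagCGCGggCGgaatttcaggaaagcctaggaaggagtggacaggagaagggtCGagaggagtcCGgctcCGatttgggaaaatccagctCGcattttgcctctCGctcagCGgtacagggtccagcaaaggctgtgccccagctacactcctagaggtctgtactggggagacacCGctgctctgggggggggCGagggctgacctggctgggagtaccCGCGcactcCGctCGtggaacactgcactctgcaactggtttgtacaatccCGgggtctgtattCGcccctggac
Tet3: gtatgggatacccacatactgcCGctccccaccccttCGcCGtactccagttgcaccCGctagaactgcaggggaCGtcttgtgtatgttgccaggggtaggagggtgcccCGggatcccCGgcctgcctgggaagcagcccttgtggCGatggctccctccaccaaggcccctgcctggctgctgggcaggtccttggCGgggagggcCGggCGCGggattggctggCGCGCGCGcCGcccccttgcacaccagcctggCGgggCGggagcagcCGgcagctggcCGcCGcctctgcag
The Dnmt3a window held 46 CpG, more than 98.4% of all 32851 windows of this length, and that of Dnmt3b held 30. The Dnmt3l window held 6, under the median of 7 over all windows, and the other Dnmt3l windows held 4 and 3. Tet1 had 17 and Tet3 had 22. All 5 windows contain the GC box GGGCGG on either strand, as do 35.7% of all windows. None contains the octamer ATGCAAAT, found in 1.74% of windows, or the E-box CACGTG, found in 7.15%; an E-box is present in the third Dnmt3a and the second Dnmt3l window. RefSeq windows were matched for 9 of the 10 genes.

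Dnmt3a (chromosome 12: 3806007 to 3914443) had 155 and 138 CPM in differentiated RlimKO-labelled libraries against 74.7 and 73.3 CPM in undifferentiated ones, and 198 and 200.3 CPM against 70.4 and 67.2 CPM in WT females. In both female lines the states did not overlap. The rise was 0.98 ± 0.26 on the log2 scale in the RlimKO-labelled line (adjusted p = 0.00583), where it was not called without either undifferentiated RlimKO-labelled library (adjusted p up to 0.0779). It was 1.54 ± 0.26 in WT females (adjusted p = 0.000185). In males, differentiated replicates 1 and 2 had 223 and 107 CPM against 107 and 102 CPM in undifferentiated cells, so that replicate 2 lay at the undifferentiated level. The male value of 0.65 ± 0.24 (adjusted p = 0.033) therefore rests on replicate 1: without it the log2 fold change was 0.10 (adjusted p = 0.593), and without replicate 2 it was 1.16. The male call was also lost in a model of only the libraries compared (adjusted p = 0.172) and without undifferentiated male replicate 1, undifferentiated male replicate 2 or undifferentiated WT female replicate 2. Dnmt3a shares 133 exonic bases with the antisense gene Dnmt3aos, 0.799% of its length, from which unstranded counts cannot separate it.

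Dnmt3b (chromosome 2: 153649450 to 153687730) had 17.0 and 12.4 CPM in differentiated RlimKO-labelled libraries against 114 and 103 CPM in undifferentiated ones. It had 19.7 and 24.6 CPM against 98.7 and 111 CPM in WT females, and 27.3 and 35.8 CPM against 207 and 217 CPM in males. It was thus lower in every differentiated library of every line. The falls were 7.62-fold in the RlimKO-labelled line (log2 fold change -2.93 ± 0.22, adjusted p = 8.24e-08), 4.75-fold in WT females (-2.25 ± 0.20, adjusted p = 4.84e-07) and 6.64-fold in males (-2.73 ± 0.19, adjusted p = 2.63e-08), all called in all 20 alternatives. A near copy, Dnmt3c, matches Dnmt3b at 93.9% over 1434 bases and has no row in the count table, so reads of both may be counted under Dnmt3b.

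Dnmt3l (chromosome 10: 78041947 to 78063622) was lower after differentiation in each line, and its undifferentiated level was far lower in the RlimKO-labelled line. The RlimKO-labelled line had 1.06 and 1.71 CPM after differentiation, near the floor of 3 counts, against 14.6 and 13.6 CPM in undifferentiated cells (log2 fold change -3.21 ± 0.65, adjusted p = 0.00098). WT females had 6.71 and 5.03 CPM against 63.0 and 73.4 CPM (-3.52 ± 0.43, adjusted p = 1.17e-05). Males had 4.36 and 17.6 CPM against 65.7 CPM in both undifferentiated libraries (-2.48 ± 0.38, adjusted p = 7.32e-05). Again differentiated male replicate 2 lay nearer the undifferentiated level than replicate 1; the log2 fold change ranged from -3.84 to -1.84 when single libraries were left out. Of the exonic length of Dnmt3l, 67 bases (2.24%) overlap Aire on the opposite strand.

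Among the TET dioxygenases, Tet1 and Tet2 fell and Tet3 rose. Tet1 (chromosome 10: 62804570 to 62908996), the form best known from pluripotent cells, had 72.3 and 78.0 CPM in differentiated RlimKO-labelled libraries against 875 and 891 CPM in undifferentiated ones, a fall of 11.7-fold (log2 fold change -3.55 ± 0.15, adjusted p = 8.15e-10). In WT females it had 101 and 112 CPM against 930.4 and 932 CPM (-3.13 ± 0.14, adjusted p = 1.44e-09). In males it had 41.3 and 38.1 CPM against 549 and 556 CPM (-3.80 ± 0.15, adjusted p = 2.8e-10). The SD between Tet1 replicates was at most 11.1 CPM in any group, and the Tet1 calls held in all 20 alternatives.

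Tet2 (chromosome 3: 133463679 to 133545139) fell in each line. It had 60.6 and 77.5 CPM in differentiated RlimKO-labelled libraries against 192 and 188 CPM, 100.2 and 85.9 CPM against 221 and 180.2 CPM in WT females, and 79.7 and 45.3 CPM against 176 and 185 CPM in males. The log2 fold changes were -1.44 ± 0.23 (adjusted p = 0.000124), -1.10 ± 0.22 (adjusted p = 0.000834) and -1.55 ± 0.22 (adjusted p = 3.87e-05) in the RlimKO-labelled, WT female and male lines. No library of one state reached the other.

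Tet3 (chromosome 6: 83362373 to 83459084), the form known for oxidising the paternal genome in the zygote, rose in each line. Differentiated RlimKO-labelled libraries had 108 and 85.1 CPM against 17.5 and 15.3 CPM in undifferentiated ones (5.86-fold; log2 fold change 2.55 ± 0.26, adjusted p = 2.06e-06). WT females had 90.4 and 80.8 CPM against 26.3 and 22.4 CPM (3.52-fold; 1.82 ± 0.24, adjusted p = 2.81e-05). Males had 89.5 and 55.3 CPM against 7.80 and 6.61 CPM (10.1-fold; 3.33 ± 0.27, adjusted p = 1.46e-07). The lines were close after differentiation and further apart before it.

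Tdg (chromosome 10: 82629828 to 82650799) had 0 counts in each of the 12 libraries, and no change of it can be stated. Its transcript matches Tdg-ps at 98.7% over 2968 bases, Gm5597 at 99.3% over 1193 bases and Gm9855 at 99.2% over 1194 bases. Gm9855 is in the count table, also with 0 counts. Of the exonic length of Tdg, 367 bases (6.83%) overlap Glt8d2 on the opposite strand. Whether reads that map to several places were discarded in counting is not given in the sources used here, and a count of 0 here does not show that the gene was silent.

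Dppa3 (chromosome 6: 122626410 to 122630272), which restrains UHRF1, had few counts in all libraries. WT females had 1.97 and 3.44 CPM after differentiation against 8.93 and 11.0 CPM before it (log2 fold change -1.89 ± 0.50, adjusted p = 0.00581). This call was lost without differentiated WT female replicate 1 (adjusted p = 0.0774). Males had 1.84 and 1.72 CPM against 16.7 and 15.2 CPM (-3.15 ± 0.48, adjusted p = 6.51e-05). In the RlimKO-labelled line the libraries of both states overlapped, with 0.531 and 1.95 CPM (1 and 8 counts) against 1.17 and 2.98 CPM (2 and 7 counts), and no change was called (-0.59 ± 0.71, adjusted p = 0.517). A processed copy, Dppa3-ps, matches Dppa3 at 98.2% over 451 bases.

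**Figure D2:**
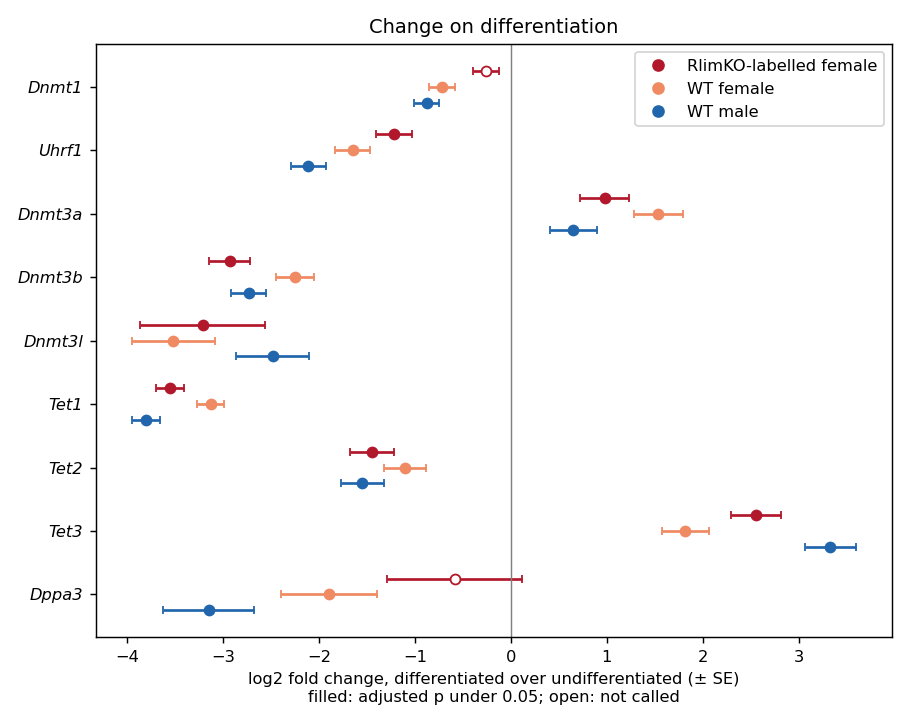
Log2 fold change of differentiated over undifferentiated cells (x axis, bars ± SE) for 9 genes in 3 lines; filled points have adjusted p under 0.05 and open points do not. Dnmt3a and Tet3 lie right of 0 in all 3 lines, and the open points are Dnmt1 and Dppa3 of the RlimKO-labelled line.

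Levels of different genes were compared per kilobase of exon. In undifferentiated cells Tet1 was the highest of the 10 in the RlimKO-labelled line (57.1 ± 0.72 CPM per kb, SD, n = 2) and in WT females (60.2 ± 0.067), whereas Uhrf1 was highest in males (61.8 ± 9.0). In differentiated cells Dnmt1 was the highest, at 32.2 ± 2.9 CPM per kb in the RlimKO-labelled line, 25.6 ± 0.53 in WT females and 25.03 ± 1.8 in males. Tet3 was the lowest tested member in every undifferentiated group, at 0.984 ± 0.092, 1.46 ± 0.16 and 0.432 ± 0.050 CPM per kb in the RlimKO-labelled, WT female and male lines. The make-up of the TET pool changed accordingly. Of the 3 TET genes' length-scaled counts, Tet1 made up 21.0% to 42.2% in differentiated libraries and 76.0% to 83.4% in undifferentiated ones, and Tet3 made up 28.2% to 43.9% against 0.837% to 2.10%. Of Dnmt3a and Dnmt3b together, Dnmt3a was 71.4% to 77.2% in 5 differentiated libraries and 47.8% in differentiated male replicate 2, against 12.6% to 17.9% in undifferentiated libraries. These shares use the full annotated exon length of each gene; isoform use was not measured.

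**Figure D3:**
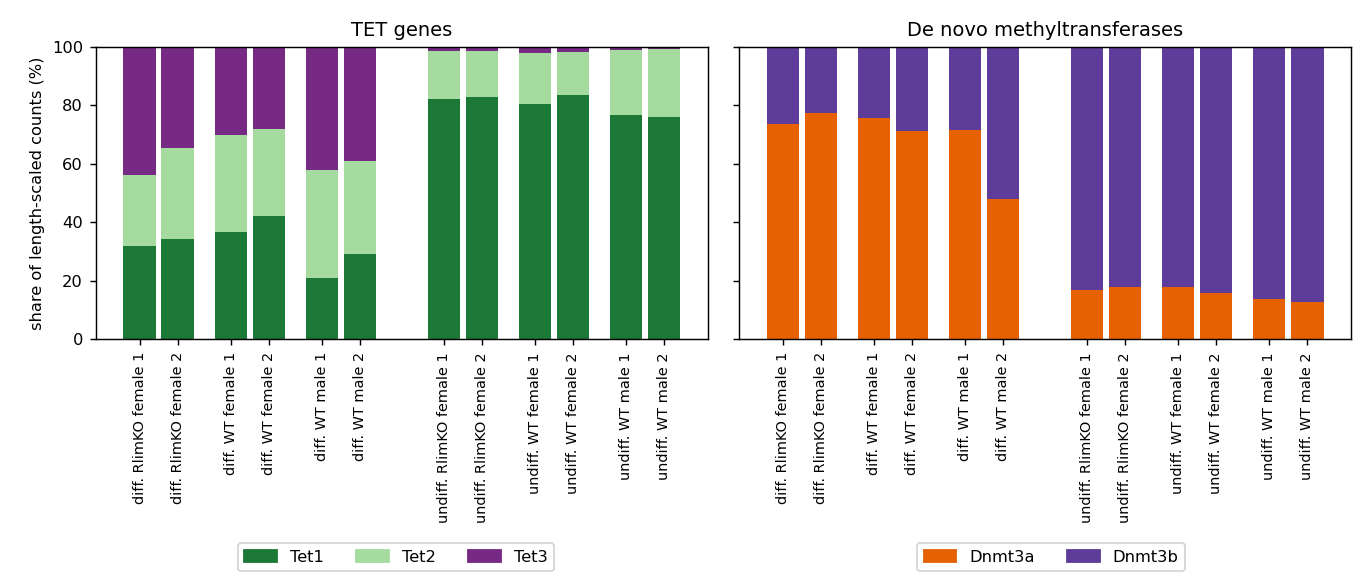
Shares (%, y axis) of Tet1, Tet2 and Tet3 (left) and of Dnmt3a and Dnmt3b (right) in length-scaled counts, 1 bar per library. Tet3 is 28.2% to 43.9% of the TET total in differentiated libraries against at most 2.10% in undifferentiated ones, and differentiated male replicate 2 has the lowest Dnmt3a share of the differentiated libraries, 47.8%.

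Between the undifferentiated female lines, Dnmt3l was the single call. It had 14.6 and 13.6 CPM in RlimKO-labelled libraries against 63.0 and 73.4 CPM in WT females, 4.84-fold lower (log2 fold change -2.27 ± 0.42, adjusted p = 0.0437), where 0.242% of all tested genes were called (0.101% higher and 0.140% lower). The lines did not overlap for 7 of the 9 members, against 40.7% of all tested genes. The call was lost in 10 of the 12 fits that left out 1 library and kept in the 2 without a differentiated male library. In these 12 fits the Dnmt3l log2 fold change ranged from -2.358 to -2.145. The call was kept in all 8 other alternatives, with adjusted p up to 0.0453. Dppa3 was also lower in both RlimKO-labelled libraries, with 1.17 and 2.98 CPM against 8.93 and 11.0 CPM, and did not pass (-2.18 ± 0.57, adjusted p = 0.165); it passed in 4 alternatives. Since Dppa3 is also a gene of early germ cells, 4 germ cell markers were compared. They summed to 44.4 and 35.0 CPM in RlimKO-labelled libraries against 47.8 and 33.4 CPM in WT females, and 0 of the 3 tested were called. Single markers differed: Dazl was lower, at 3.50 and 0.852 CPM (6 and 2 counts) against 6.83 and 7.63 CPM (13 and 16 counts). Ddx4 overlapped, at 13.4 and 6.39 CPM against 8.93 and 7.15 CPM. ESC markers summed to 1602 and 1551 CPM in RlimKO-labelled against 1737 and 1801 CPM in WT female libraries, and 0 of the 7 were called. The part of germ cells or of ESC markers in the Dppa3 and Dnmt3l differences was not tested. The other 7 tested members had log2 fold changes between -0.57 (Tet3, adjusted p = 0.55) and 0.11 (Dnmt3a, adjusted p = 0.954). Dnmt3b, at 114 and 103 CPM against 98.7 and 111 CPM, overlapped between the lines (0.05 ± 0.18), as did Tet2 (-0.08 ± 0.22). Klhl13, the X-linked regulator of ERK signalling, had 88.7 and 113 CPM in RlimKO-labelled against 280.4 and 248 CPM in WT female libraries. In males it had 88.8 and 117 CPM, lower than in WT females (adjusted p = 0.00569, edgeR), where Dnmt3l did not differ (0.05 ± 0.36, adjusted p = 0.96). Dusp9, another such regulator, had 103 and 76.7 CPM in RlimKO-labelled against 68.3 and 69.6 CPM in WT female libraries and was not called. Against males, Dusp9 was called higher in the RlimKO-labelled line (adjusted p = 0.0447, edgeR). Any link of Klhl13 or Dusp9 to Dnmt3l was not tested.

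After differentiation no member was called between the female lines (2.59% of all tested genes were), while 4 had an unadjusted p under 0.05. Those were Tet1 (-0.50 ± 0.14, adjusted p = 0.0766), Dnmt3l (-1.97 ± 0.68, adjusted p = 0.162), Dnmt3b (-0.63 ± 0.23, adjusted p = 0.177) and Dnmt1 (0.33 ± 0.14, adjusted p = 0.261). DESeq2 called 1 of the 9, Tet1. Tet1 had 72.3 and 78.0 CPM in RlimKO-labelled against 101 and 112 CPM in WT female libraries. Dnmt3l had 1.06 and 1.71 CPM against 6.71 and 5.03 CPM, and Dnmt3b had 17.0 and 12.4 CPM against 19.7 and 24.6 CPM. None of these 4 overlapped between the lines, and 7 of the 9 members did not, against 55.4% of all tested genes. Fitting these libraries by themselves called 6 members, and 2154 genes in all, where the reported fit called 332 genes in all. Leaving out differentiated male replicate 1 or 2 also raised the count, both of members and of all genes. ESC markers summed to 90.8 and 83.9 CPM in RlimKO-labelled against 176 and 171 CPM in WT female libraries, endoderm markers to 143 and 123 CPM against 245 and 244 CPM, and neuroectoderm markers to 41.4 and 43.9 CPM against 121 and 132 CPM. Fibroblast markers summed to 11441 and 11118 CPM against 8159 and 7001 CPM, and of 4 tested mesoderm markers 1 was called higher and 2 lower. The part of these markers in the differences of Dnmt1, Tet1, Dnmt3b and Dnmt3l was not tested.

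Undifferentiated WT females differed from males in Dnmt3b, Tet1 and Tet3, 3 of 9 members (2 higher, 1 lower), where 6.63% of all tested genes were called (3.12% higher and 3.50% lower). The lines did not overlap for 7 of the 9, against 54.4% of all tested genes. Dnmt3b had 98.7 and 111 CPM in WT females against 207 and 217 CPM in males (log2 fold change -1.01 ± 0.18, adjusted p = 0.00448). Tet1 had 930.4 and 932 CPM against 549 and 556 CPM (0.75 ± 0.13, adjusted p = 0.00395). Tet3 had 26.3 and 22.4 CPM against 7.80 and 6.61 CPM (1.77 ± 0.30, adjusted p = 0.00356). Of these calls Tet1 held in all 12 fits that left out 1 library, Dnmt3b was lost in 2 and Tet3 in 1. Dnmt3l did not separate the lines, at 63.0 and 73.4 CPM against 65.7 CPM in both male libraries (0.05 ± 0.36, adjusted p = 0.96). Dnmt3a was lower in both WT female libraries, with 70.4 and 67.2 CPM against 107 and 102 CPM, and was not called (-0.60 ± 0.26, adjusted p = 0.189). Markers of primed cells summed to 23.6 and 16.2 CPM in WT females against 56.5 and 65.5 CPM in males. Of the 4 markers 3 were tested, of which 1 was called lower in WT females and 0 higher. Fgf5, at 0 in all undifferentiated female libraries, was not among the tested ones. The part of these markers in the Dnmt3b difference was not tested.

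The undifferentiated RlimKO-labelled line differed from males in the same 3 genes and in 3 more, 6 of 9 members (2 higher, 4 lower), where 10.0% of all tested genes were called (4.60% higher and 5.41% lower). The lines did not overlap for 9 of the 9, against 58.6% of all tested genes. Dnmt3b had 114 and 103 CPM against 207 and 217 CPM (-0.96 ± 0.18, adjusted p = 0.00401), Tet1 had 875 and 891 CPM against 549 and 556 CPM (0.68 ± 0.13, adjusted p = 0.00504), and Tet3 had 17.5 and 15.3 CPM against 7.80 and 6.61 CPM (1.20 ± 0.32, adjusted p = 0.0282). The males are the same libraries as above, so these are not independent of the WT female values. Dnmt3l had 14.6 and 13.6 CPM against 65.7 CPM in both male libraries (-2.22 ± 0.42, adjusted p = 0.00438). Dppa3 had 1.17 and 2.98 CPM against 16.7 and 15.2 CPM (-2.85 ± 0.54, adjusted p = 0.00476). Uhrf1 had 165 and 171 CPM against 290.4 and 236 CPM (-0.64 ± 0.18, adjusted p = 0.0334), and this call was lost in 12 of 20 alternatives, RLE size factors and DESeq2 among them. Tet3 was lost in 4 of the 12 fits without a library (adjusted p up to 0.183), and the calls of Dnmt3b, Dnmt3l, Tet1 and Dppa3 in 1 each. Primed cell markers summed to 23.9 and 14.9 CPM against 56.5 and 65.5 CPM, and of the 3 tested 1 was called lower and 0 higher.

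**Figure D4:**
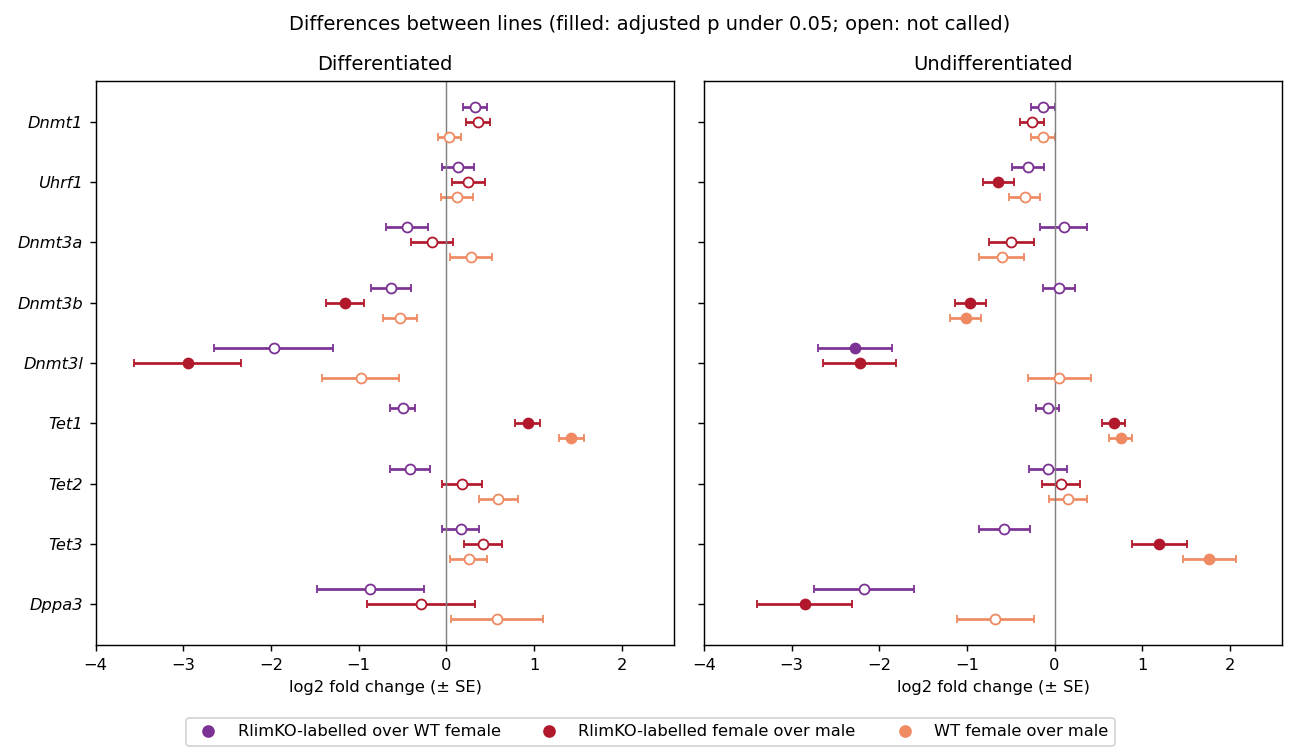
Log2 fold change between lines (x axis, bars ± SE) for 9 genes in differentiated (left) and undifferentiated (right) cells; filled points have adjusted p under 0.05. Tet1 lies right of 0 for both female lines over males in both states, and Dnmt3l of the RlimKO-labelled line lies left of 0 in all 4 of its comparisons, 3 of them filled.

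In differentiated cells the higher Tet1 of females over males was called for both lines. WT females had 101 and 112 CPM against 41.3 and 38.1 CPM in males (1.43 ± 0.14, adjusted p = 5.26e-05), the single member called, where 8.97% of all tested genes were (4.67% higher and 4.29% lower). The RlimKO-labelled line had 72.3 and 78.0 CPM (0.93 ± 0.14 over males, adjusted p = 0.0012), and there 3 of 9 were called (1 higher, 2 lower) against 11.6% of all genes (5.65% higher and 5.97% lower). In both comparisons 4 of the 9 members did not overlap between the lines, against 50.5% of all tested genes for WT females and 51.1% for the RlimKO-labelled line. Both Tet1 calls held in the 12 fits that left out 1 library and were lost in a model of only the libraries compared (adjusted p = 0.117 and 0.112). Dnmt3b had 17.0 and 12.4 CPM in RlimKO-labelled libraries against 27.3 and 35.8 CPM in males (-1.16 ± 0.22, adjusted p = 0.00393). Dnmt3l had 1.06 and 1.71 CPM against 4.36 and 17.6 CPM (-2.95 ± 0.61, adjusted p = 0.0072), and -1.54 without differentiated male replicate 2. The Dnmt3b call was lost without differentiated RlimKO-labelled replicate 2 (adjusted p = 0.138) and with only the libraries compared (adjusted p = 0.142), and the Dnmt3l call in 4 of 20 alternatives, leaving out either differentiated RlimKO-labelled library among them (adjusted p up to 0.121). For WT females over males Dnmt3l was -0.98 ± 0.44 (adjusted p = 0.18), and without differentiated male replicate 2 the sign turned, to 0.45. Dnmt3a of the RlimKO-labelled line over males was -0.17 ± 0.24 (adjusted p = 0.696), but 0.42 without male replicate 1 and -0.65 without male replicate 2, so that no direction can be given. The 2 male libraries differed in fibroblast and ESC markers as stated above. The part of this difference in the Dnmt3a and Dnmt3l values was not tested. Of the 7 ESC markers, 3 were called higher and 0 lower in differentiated WT females over males (median log2 fold change 0.88). For the RlimKO-labelled line over males, 0 of the 7 were called (median -0.14). ESC marker sums, in CPM, were 176 and 171 (WT female), 90.8 and 83.9 (RlimKO-labelled) and 54.2 and 163 (male). The part of ESC markers in both Tet1 differences was not tested.

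Whether the change on differentiation itself differed between lines was tested for each gene, and no member passed in any of the 3 comparisons, where 0.203% (RlimKO-labelled against WT female), 1.39% (WT female against male) and 2.61% (RlimKO-labelled against male) of all tested genes did. In each comparison 3 of the 9 had an unadjusted p under 0.05; DESeq2 called 1 member, Tet3, in the comparison of WT female with male. The rise of Tet3 in WT females differed from that in males by -1.51 ± 0.37 (adjusted p = 0.0593), which passed in 6 of 20 alternatives. The fall of Tet1 in WT females differed from that in males by 0.67 ± 0.19 (adjusted p = 0.0944). The fall of Uhrf1 in RlimKO-labelled cells differed from that in males by 0.89 ± 0.26 (adjusted p = 0.0812) and Dppa3 by 2.56 ± 0.86 (adjusted p = 0.135). Between the female lines the lowest adjusted p was 0.427, for Dnmt1.

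Genes that work with these enzymes were followed from 7 lists. Their counts stand against the shares of all tested genes called on differentiation, 26.4% higher and 21.6% lower in the RlimKO-labelled line, 26.5% and 22.2% in WT females, and 28.7% and 25.4% in males. Of 8 partners of maintenance methylation, 1 rose and 6 fell in the RlimKO-labelled line, 1 rose and 5 fell in WT females, and 1 rose and 6 fell in males. Cdca7, which with the remodeller Hells opens chromatin to DNMT1, fell by 2.14 ± 0.17, 2.48 ± 0.17 and 2.56 ± 0.16 on the log2 scale in the RlimKO-labelled, WT female and male lines (adjusted p = 1.97e-07, 3.96e-08 and 1.42e-08). Hells fell by 1.998 ± 0.18, 2.13 ± 0.18 and 2.73 ± 0.18. Uhrf2, a paralogue of Uhrf1, went the other way, with log2 fold changes of 1.67 ± 0.19, 1.32 ± 0.18 and 1.14 ± 0.17 (adjusted p at most 6.55e-05). Median log2 fold changes of the 8 were -0.97, -1.30 and -1.88, where those of all tested genes were 0.10, 0.09 and 0.05. In the differentiated state 3 partners were higher in each female line than in males, where 11.6% (RlimKO-labelled) and 8.97% (WT female) of all tested genes were called, among them Pcna, the replication clamp (0.83 ± 0.17, adjusted p = 0.00589, for RlimKO-labelled; 0.76 ± 0.16, adjusted p = 0.0111, for WT females). Without differentiated RlimKO-labelled replicate 2 these 3 became 0, and without differentiated WT female replicate 2 they became 1; Pcna was lost in both of these fits (adjusted p = 0.0706 and 0.182).

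Of 8 readers of methylated CpG, 2 rose and 1 fell in the RlimKO-labelled line, 2 rose and 2 fell in WT females, and 5 rose and 0 fell in males, with medians of 0.35, 0.42 and 0.87. In the RlimKO-labelled and WT female lines that is 3 and 4 of 8 called, where 48.0% and 48.7% of all tested genes were, and 5 of 8 against 54.0% in males. Zbtb4, a zinc finger protein that binds methylated DNA, rose by 1.96 ± 0.28, 3.12 ± 0.30 and 3.37 ± 0.26 in the RlimKO-labelled, WT female and male lines, and Mbd2, a methyl-CpG binding protein of the NuRD complex, by 2.36 ± 0.36, 1.66 ± 0.33 and 2.55 ± 0.33 (adjusted p at most 0.000836 for both). Zbtb38, a related zinc finger gene, changed by -2.26 ± 0.22 in RlimKO-labelled cells (adjusted p = 1.59e-06) and by -0.87 ± 0.21 in WT females (adjusted p = 0.00308), a call lost without differentiated WT female replicate 1 (adjusted p = 0.0617), and had -0.24 ± 0.20 in males (adjusted p = 0.324). Its change in the RlimKO-labelled line differed from that in males by -2.02 ± 0.30 (adjusted p = 0.00415), a difference called in all 12 fits that left out 1 library.

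Of 14 tested genes of base excision and deamination (15 listed), 1 rose and 6 fell in each female line, and 0 rose and 6 fell in males, with medians of -0.54, -0.61 and -0.36. The 7, 7 and 6 of 14 called are near the shares of all tested genes called, 48.0%, 48.7% and 54.0%. Parp1, which senses strand breaks, changed by -1.65 ± 0.15, -1.69 ± 0.15 and -1.52 ± 0.15 in the RlimKO-labelled, WT female and male lines, and Ung, the uracil glycosylase, by -2.04 ± 0.24, -1.38 ± 0.23 and -3.08 ± 0.24 (adjusted p at most 0.000198 for both). The single rise in each female line was Gadd45g, at 7.4 ± 0.8 CPM in differentiated RlimKO-labelled and 6.1 ± 1.5 CPM in differentiated WT female libraries, against 2 counts and 1 count summed over the undifferentiated pairs. In males it had 6.93 ± 0.067 CPM against 3.84 ± 1.7 CPM and was not called (0.80 ± 0.50, adjusted p = 0.192). In differentiated cells Ung was higher than in males by 1.18 ± 0.26 in RlimKO-labelled cells (adjusted p = 0.0109) and by 1.33 ± 0.25 in WT females (adjusted p = 0.00509). The first of these calls was lost without differentiated RlimKO-labelled replicate 2 (adjusted p = 0.22) and the second without differentiated WT female replicate 2 (adjusted p = 0.0794).

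Of 14 genes that supply the methyl donor or the TET cosubstrate 2-oxoglutarate, 2 rose and 9 fell in the RlimKO-labelled line, 3 rose and 9 fell in WT females, and 2 rose and 10 fell in males, with medians of -1.40, -1.34 and -1.30, and with 26.4%, 26.5% and 28.7% of all tested genes called higher and 21.6%, 22.2% and 25.4% lower. In the RlimKO-labelled line the 2 that rose became 1 at the lowest when 1 library was left out; Idh1, an isocitrate dehydrogenase, was lost in 7 of 12 such fits (adjusted p up to 0.34). Tdh, the threonine dehydrogenase on which mouse ESCs depend, had 4.9 ± 1.0 CPM in differentiated RlimKO-labelled libraries against 117 ± 6.9 CPM in undifferentiated ones (-4.50 ± 0.23, adjusted p = 2.82e-09). In WT females it had 13.0 ± 0.8 CPM against 115 ± 6.4 CPM (-3.14 ± 0.19, adjusted p = 1.8e-08), and in males 5.0 ± 0.9 CPM against 148 ± 21.7 CPM (-4.83 ± 0.21, adjusted p = 5.31e-10). Mthfd1, a folate enzyme, changed by -1.95 ± 0.15, -1.67 ± 0.15 and -2.44 ± 0.15 in the RlimKO-labelled, WT female and male lines. Between lines, Mat2a, which makes the methyl donor, was higher in differentiated RlimKO-labelled cells (1.23 ± 0.20, adjusted p = 0.00169) and WT females (1.34 ± 0.20, adjusted p = 0.00111) than in males. Tdh was lower in differentiated RlimKO-labelled than in WT female cells (-1.33 ± 0.26, adjusted p = 0.0128), a call kept in 8 of 12 fits that left out 1 library.

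Of 12 TET partners and factors that target methylation, 2 rose and 6 fell in the RlimKO-labelled line, 3 rose and 5 fell in WT females, and 1 rose and 7 fell in males, with medians of -0.37, -0.40 and -0.57 and the same shares of all tested genes. None of the rises held throughout: they became 0 without undifferentiated RlimKO-labelled replicate 1, undifferentiated WT female replicate 2 and undifferentiated male replicate 2, each in its own line. Without the last of these the 7 that fell in males became 4. Zfp57, which guards imprints, changed by -1.66 ± 0.16, -1.75 ± 0.16 and -1.29 ± 0.15, and its partner Trim28 by -1.06 ± 0.14, -1.37 ± 0.14 and -1.48 ± 0.14 in the RlimKO-labelled, WT female and male lines (adjusted p at most 2.52e-05 for both). Against undifferentiated males, Zfp57 was higher in RlimKO-labelled cells (0.61 ± 0.15, adjusted p = 0.0207) and in WT females (0.80 ± 0.15, adjusted p = 0.00684), calls lost in 3 of 12 (adjusted p up to 0.167) and 2 of 12 (adjusted p up to 0.0858) fits that left out 1 library. Of 12 tested germline genes known to be silenced by promoter methylation (16 listed), 9 fell and 0 rose in each line, where 21.6%, 22.2% and 25.4% of all tested genes fell in the RlimKO-labelled, WT female and male lines and the list's medians were -3.79, -2.73 and -3.92. Rpl10l, a testis ribosomal protein, had 0.9 ± 0.2 CPM in differentiated RlimKO-labelled libraries against 39.2 ± 2.4 CPM (-5.48 ± 0.46, adjusted p = 2.86e-07), 1.8 ± 0.1 CPM against 37.6 ± 4.7 CPM in WT females (-4.35 ± 0.38, adjusted p = 4.46e-07) and 0.4 ± 0.4 CPM against 11.8 ± 1.4 CPM in males (-5.15 ± 0.48, adjusted p = 6.82e-07). Hormad1, a meiotic chromosome axis gene, had 1, 5 and 0 counts summed over the differentiated RlimKO-labelled, WT female and male pairs, against 102, 222 and 112 counts in the undifferentiated ones. Between the undifferentiated female lines 0 genes of these 6 lists were called by edgeR, where 0.242% of all tested genes were called. In that comparison Klhl13 was called among the X-linked ERK regulators (-1.38 ± 0.25, adjusted p = 0.0437), in 2 of 12 fits that left out 1 library, both without a differentiated male library, as for Dnmt3l.

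Genes whose centred log2 CPM followed a member most closely over the 12 libraries were found by root mean square difference, among 9217 genes of at least 10 CPM in some group. For Dnmt3l these were Inpp5d (0.55), Usp26 (0.59) and Ppp2r2c (0.67), where Dnmt3l itself varied by 1.89. For Dnmt3a they were Eif4g3 (0.20), Jag1 (0.21) and Zbed6 (0.23), with 0.60 for Dnmt3a. For Dnmt3b they were Cecr2 (0.32), Slc7a7 (0.34) and Phc1 (0.35), with 1.39 for Dnmt3b. For Dppa3 they were Rad51c (0.53), Chst10 (0.62) and Bcas3 (0.65), with 1.29 for Dppa3. The 12 points of each profile share state and line, so this likeness is a description.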

How the data were processed

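Gene counts of 12 libraries were analysed, 2 for each of 6 groups taken from the labels. Per the labels' protocols, RNA was bead-purified, reverse-transcribed with template switching, amplified, tagmented and sequenced; no molecular identifiers or strand marking were described, and count floors cover counting error only. The count table as deposited holds whole-number counts per gene symbol; TopHat2 2.0.12 and HTSeq 0.6.1p1 on mm10 are named in the submitters' processing notes, with bcl2fastq 2.16.0.10 and edgeR 3.10.0. The gene annotation, strand setting and handling of multiply mapped reads are not given in the sources used here. Its 5 summary lines were left out of library sizes; reads in no annotated gene were 45.4% to 53.3% of each library.

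From the counts, 1 model of 6 group means was fitted in R 4.3.3 with edgeR 4.0.16 (TMM scaling, default expression filter, quasi-likelihood F test), and p was adjusted over 12814 tested genes by Benjamini-Hochberg. The standard error is the size of the log2 fold change divided by the root of F. CPM are computed per 1e6 of TMM-scaled library size; where 2 groups of 2 are compared, the smallest exact permutation p is 0.33, so no such test is given. Alternatives were RLE size factors, Rn45s and Lars2 taken out, no filter, at least 20 counts in 2 libraries, DESeq2 1.42.0, the replicate number as a block, only the libraries compared, each library left out, and, added after the data were seen, the libraries of highest and lowest Rn45s share left out together. Deviations of same-numbered replicates did not go together (correlation -0.0621 to 0.116 over 15 pairs of groups). Exon lengths, coordinates and overlaps come from GENCODE vM21 (GRCm38, the assembly of mm10), promoter sequences from RefSeq (GRCm38.p6). The fit was tested on simulated data. The members and lists were chosen with earlier results of these data known. The 10 members are named in every comparison, and of each other list at most 2 called genes per direction, by smallest p. On differentiation, a gene whose change is given for 1 line has it given for all 3. Some genes that this rule would name are not reported here.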

Additional observations from a re-analysis of the deposited data

How the results depend on the processing

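On differentiation, the counts of members called (7, 9 and 9 in the RlimKO-labelled, WT female and male lines) stayed within 1.5 times under every alternative run. Between lines they moved more. Between the undifferentiated female lines the count was 1; it was 2 in a model of only the libraries compared and 2 without the pair of libraries with the highest and lowest Rn45s share, an alternative chosen after seeing the data, and 0 to 2 without single libraries. Between the differentiated female lines it was 0; it was 1 with Rn45s and Lars2 taken out, 1 with no filter, 1 with DESeq2, 6 with only the libraries compared, 3 without both extreme libraries, and 0 to 5 without single libraries. For the undifferentiated RlimKO-labelled line against males it was 6, and 2 to 7 without single libraries. For differentiated WT females against males it was 1; it was 3 with no filter, 0 with only the libraries compared and 1 to 6 without single libraries. For the differentiated RlimKO-labelled line against males it was 3; it was 0 with only the libraries compared and 1 to 8 without single libraries. Each highest count in these ranges came from leaving out differentiated male replicate 1, and for both undifferentiated comparisons and between the differentiated female lines also from leaving out replicate 2. For differences of change, 0 became 1 between the female lines with only the libraries compared; between WT females and males it became 1 with no filter, 1 with DESeq2, 1 with the replicate block, 2 without both extreme libraries and 0 to 6 without single libraries; between the RlimKO-labelled line and males it became 3 without both extreme libraries and 0 to 3 without single libraries. The number of all genes called moved as well. With only the libraries compared, 303 genes were called between the undifferentiated female lines and 2154 between the differentiated ones. The reported fit called 31 and 332. Against males it was 5 for differentiated WT females and 10 for the differentiated RlimKO-labelled line, where the reported fit called 1149 and 1489. Counts of all genes also moved in the fits without single libraries. The cause was not tested.

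Replicate numbers did not pair the libraries, and the replicate block changed 1 call, that of Tet3 in the difference of change between WT females and males; the replicate block called 1 member there and 0 without it.

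Over single genes, 1985 values kept direction and side of the threshold, 76 passed where the reported one did not, 49 no longer passed and 44 turned sign. The sign turned, for log2 values near 0 or not called in the reported fit, as follows. Without both extreme libraries, the differentiated RlimKO-labelled over WT female value of Tet3 was -0.011. The differentiated WT female over male values were -0.035 (Dnmt1), -0.047 (Uhrf1), -0.16 (Dnmt3a), 0.45 (Dnmt3l) and -0.058 (Tet3). The differentiated RlimKO-labelled over male values were -0.035 (Tet2), -0.069 (Tet3) and 0.090 (Dppa3). The differences of change were 0.40 (Dnmt3l, WT female against male), -0.20 (Dnmt3a), 0.89 (Dnmt3l) and -0.11 (Tet2), the last 3 for the RlimKO-labelled line against males. That Tet2 difference was also -0.016 with Rn45s and Lars2 taken out, -0.012 with no filter, -0.029 with the stricter filter and -0.021 with only the libraries compared. Without single libraries, values that turned sign ranged as follows: Dppa3 on differentiation of the RlimKO-labelled line from -1.96 to 0.17; undifferentiated RlimKO-labelled over WT female Dnmt3b from -0.016 to 0.16 and Tet2 from -0.20 to 0.10; differentiated RlimKO-labelled over WT female Uhrf1 from -0.083 to 0.28 and Tet3 from -0.015 to 0.33; differentiated WT female over male Dnmt1 from -0.033 to 0.13, Uhrf1 from -0.045 to 0.32, Dnmt3a from -0.16 to 0.92, Dnmt3l from -1.53 to 0.45 and Tet3 from -0.056 to 0.66; differentiated RlimKO-labelled over male Dnmt3a from -0.65 to 0.42, Tet2 from -0.20 to 0.62 and Dppa3 from -1.67 to 0.14. Differences of change ranged for RlimKO-labelled against WT female in Dnmt3l from -0.18 to 0.54 and Dppa3 from -0.078 to 2.13; for WT female against male in Dnmt3l from -1.66 to 0.34; for RlimKO-labelled against male in Dnmt3a from -0.22 to 0.83, Dnmt3b from -0.49 to 0.060, Dnmt3l from -1.41 to 0.62 and Tet2 from -0.34 to 0.45. Depth limits Dppa3 and differentiated Dnmt3l most, at 0.531 to 3.44 CPM and 1.06 to 17.6 CPM in differentiated libraries; Tdg, at 0 counts, could not be tested.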
